A study of Eutrema salsugineum with 2 samples.

Results

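Reads were examined here for 6 genes of Eutrema salsugineum, out of 17888 genes with reads in rosettes of the Shandong (SH) and Yukon (YK) accessions: HB6, DEAR3, MYB48, CAM5, TSPO and COR15B, named after their best hits in Arabidopsis thaliana. The set holds 3 transcription factor genes, a calmodulin gene, a stress-induced membrane protein gene and the gene of a cold-induced chloroplast protein, so that COR15B and TSPO stand beside the regulators as stress-induced proteins. The genes were chosen by identifier with their reads in both libraries already known, so these reads are themselves what chose them. The values below are therefore a description, and no test was made on them.

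E. salsugineum is a salt-tolerant relative of A. thaliana. SH plants, labelled as less drought tolerant with thicker leaves and less rosette biomass, were compared with YK plants, labelled as more drought tolerant with thinner leaves and more biomass. Both were well watered, aged 4 weeks, kept at a photoperiod of 12 h with a day temperature of 22 °C and a night temperature of 20 °C, and harvested as whole rosettes in the middle of the dark period; no stress and no abscisic acid was applied. Each accession gave 1 library of pooled plants (the labels mention both 4 replicates of 5 plants and 1 replicate of 5 plants), so no difference has a replicate check, and accession cannot be told apart from library.

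Abscisic acid (ABA) is the hormone through which plants report water deficit, salt and cold to their tissues. In A. thaliana it binds PYR/PYL receptors, which then inhibit clade A protein phosphatases 2C and so release SnRK2 kinases to act on transcription factors and ion channels. A second route to cold and dehydration genes runs through DREB/CBF factors that bind the dehydration-responsive element of promoters, and calcium sensors such as calmodulin carry a further part of the signal. All roles given below are known from A. thaliana and were not tested in these plants.

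The libraries held 482275 reads on genes in SH and 431705 in YK. The median-of-ratios size factors were 1 and 1, so log2 ratios of YK to SH were taken from the reads as deposited, with 0.5 reads added to each. Scaling by total reads would raise every log2 ratio by 0.16. Counting intervals are 95% Clopper-Pearson intervals and cover counting error only; the reads carry no molecular identifiers. For a count of 0 the upper limit used is the one-sided one of 3 reads, which is 6.22 RPM (reads scaled to 1e6 reads on genes) in SH and 6.95 in YK; the two-sided interval reaches 7.65 and 8.54 RPM. Rosettes are mixtures, so more cells of a type and more RNA per cell cannot be told apart. Among guard cell markers, FAMA had 5 SH reads and 6 YK reads and KAT1 had 5 and 1. Flower, root and seed markers were not found in the part of the annotation used here. The part of tissue makeup in the results was not tested.

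The 6 genes together had 100 SH reads and 212 YK reads, or 207 RPM and 491 RPM. RPM values here and below carry the scaling by total reads, so they set YK higher against SH than the reads and log2 ratios do. HB6, MYB48, CAM5 and TSPO had more reads in YK, DEAR3 had more in SH, and COR15B had a single read in all. A gene was called when it had at least 10 reads in the libraries together, differed by at least 2-fold and had a counting interval of the log2 ratio that left out 0. HB6, MYB48, CAM5 and TSPO were called higher in YK, a call made for 5.54% of the 10036 genes that reached 10 reads. DEAR3 was called higher in SH, a call made for 6.41% of them. COR15B did not reach 10 reads. Since the genes were picked from this same comparison, their number of calls says nothing beyond the choice. None of the 6 genes was among the differentially expressed genes that the paper listed from its own DESeq comparison, made without replicates. That list was set by a false discovery rate limit and was far shorter than the calls made here. The rules are unlike, and most genes called here are absent from it. Over all genes 556 were called higher in YK and 643 in SH, and with total reads as the scaling 790 and 476, so which direction was more frequent turned with the scaling. Of the 5 called genes, DEAR3 alone had an interval wholly beyond 2-fold.

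**Figure D1:**
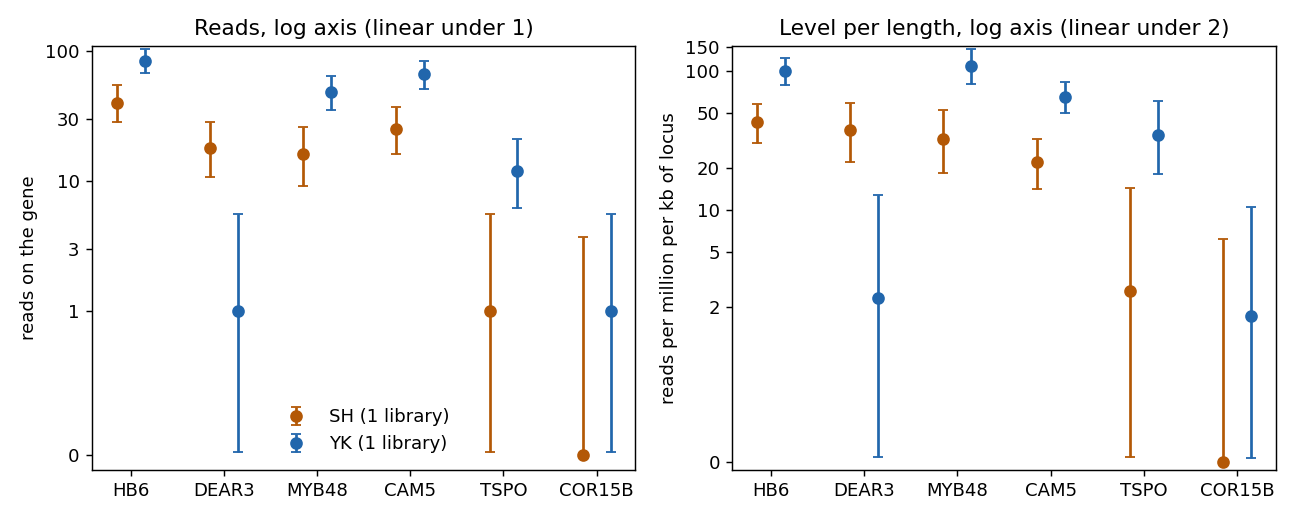
Reads per gene (left) and RPM per kilobase of locus (right) in the SH library (brown) and the YK library (blue), both on log axes that turn linear near 0; points are the values of 1 library each and bars are 95% counting intervals. HB6, MYB48, CAM5 and TSPO lie higher in YK, DEAR3 lies higher in SH at 18 reads against 1, and COR15B lies at 0 and 1 read.

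HB6 (Thhalv10000259m.g, hit AT2G22430) encodes a homeodomain-leucine zipper protein of class I that is induced by ABA, binds the phosphatase ABI1 and dampens ABA responses. It lies on scaffold 15 from 933517 to 935451. The gene had 40 reads in SH (counting interval 28.6 to 54.5) and 84 in YK (interval 67.0 to 104), the most reads of the 6 genes in both libraries. The counting intervals of the libraries did not overlap. YK was 2.1-fold higher, with a log2 ratio of 1.06 (interval 0.51 to 1.65), which is close to the 2-fold limit.

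HB7 and HB52 were the other class I homeodomain-leucine zipper genes found in the part of the annotation used here. HB7 (Thhalv10001600m.g), which is strongly induced by drought and ABA in A. thaliana, had 40 SH reads and 45 YK reads, with a log2 ratio of 0.17 (interval -0.48 to 0.82), and was not called. HB6 and HB7 thus had equal reads in SH, and HB6 made up 50% of the reads of the pair there (interval 38.6 to 61.4%) and 65.1% in YK (interval 56.2 to 73.3%). These intervals overlapped. HB52 (Thhalv10014905m.g) had no reads in SH and 1 in YK.

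MYB48 (Thhalv10002648m.g, hit AT3G46130) encodes an R2R3-MYB transcription factor, closely related to MYB59, whose transcripts are alternatively spliced. It lies on scaffold 4 from 9266939 to 9267956. The gene had 16 reads in SH (interval 9.15 to 26.0) and 48 in YK (interval 35.4 to 63.6), and the intervals did not overlap. YK was 3-fold higher, with a log2 ratio of 1.56 (interval 0.74 to 2.5). The counts are per locus, so splice forms were not separated. MYB70 (Thhalv10000438m.g), of the MYB44 group, had 3 SH reads and 2 YK reads. MYB2 (Thhalv10001584m.g), an activator of dehydration genes, had none in SH and 1 in YK, and both stayed under 10 reads. On the scaffold, MYB48 lay next to XLOC_017575, a locus for which the names used here give no hit, 16293 bp away, to which 50 SH reads and no YK reads were assigned; the one-sided limit for 0 is 3 reads. The paper listed XLOC_017575 as absent in YK and did not detect it there by qRT-PCR either. The reference was the SH genome, and its part in such a difference was not tested here.

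DEAR3 (Thhalv10000354m.g, hit AT2G23340) encodes a small DREB factor of the A-5 group with an EAR motif, a short stretch found in transcriptional repressors. It lies on scaffold 15 from 1854684 to 1855677 and was alone among the 6 genes in having more reads in SH. The gene had 18 reads in SH (interval 10.7 to 28.4) and 1 in YK (interval 0.0253 to 5.57), without overlap of the intervals. The ratio of the counts was 18 and its log2 ratio of YK to SH was -3.62, with an interval of -9.55 to -1.51 that is wide because YK had a single read. Other DREB, CBF and ICE1 genes of the list were not found in the part of the annotation used here, and their reads were not analysed. The next locus with reads on the scaffold, PAB4 (Thhalv10000075m.g), a poly(A)-binding protein gene 3079 bp away, had 44 SH reads and 47 YK reads.

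CAM5 (Thhalv10002103m.g, hit AT2G27030) encodes calmodulin, the calcium sensor that binds and regulates target proteins when cytosolic calcium rises during stress. It lies on scaffold 12 from 102059 to 104400. The locus had 25 reads in SH (interval 16.2 to 36.9) and 66 in YK (interval 51.0 to 84.0), and the intervals did not overlap. YK was 2.64-fold higher, with a log2 ratio of 1.38 (interval 0.72 to 2.13).

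A second locus had the same best hit. Thhalv10002700m.g, on scaffold 4 from 14098174 to 14100181, carried 68 SH reads and 63 YK reads, with a log2 ratio of -0.11 (interval -0.63 to 0.41), and was not called. As the reads were assigned, the difference between the libraries lay at the scaffold 12 locus. It gave 26.9% of the reads of both loci in SH (interval 18.2 to 37.1%) and 51.2% in YK (interval 42.2 to 60.1%). These shares do not depend on the scaling between libraries. The 2 loci together had 93 SH reads and 129 YK reads, with a log2 ratio of 0.47 (interval 0.08 to 0.87), which is under 2-fold. Calmodulins are near-identical in their protein sequence in A. thaliana. Only uniquely mapped reads were counted, against the SH genome. How far this affected the split between the copies was not tested, so the split is uncertain.

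Among other calcium signalling genes, CAMTA3 (Thhalv10000026m.g), a calmodulin-binding transcription factor, had 6 SH reads and 14 YK reads, with a log2 ratio of 1.16 (interval -0.25 to 2.89). CBL9 (Thhalv10001023m.g), a calcineurin B-like sensor that acts with CIPK23, had 8 and 5 reads, with a log2 ratio of -0.63 (interval -2.64 to 1.12). Neither was called.

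TSPO (Thhalv10001647m.g, hit AT2G47770) encodes a tryptophan-rich membrane protein of the secretory pathway that is induced by ABA and osmotic stress, binds heme and is removed by autophagy. It lies on scaffold 22 from 1746666 to 1747458. The gene had 1 read in SH (interval 0.0253 to 5.57) and 12 in YK (interval 6.20 to 21.0), and these intervals did not overlap. The ratio of the counts was 12 and the log2 ratio 3.06, with an interval of 0.83 to 9.0 that allows a difference of less than 2-fold. Both neighbours on the scaffold lay within 1 kb of TSPO. ALG3 (Thhalv10001458m.g), a mannosyltransferase gene 472 bp away, had 8 SH reads and 5 YK reads, and Thhalv10001614m.g, 668 bp away, had 15 and 13. ATI1 (Thhalv10001583m.g), an ATG8-interacting protein gene of autophagy, had 6 and 2 reads and stayed under 10 in all.

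COR15B (Thhalv10017394m.g, hit AT2G42530) encodes a late embryogenesis abundant protein that protects chloroplast membranes in freezing and is induced through CBF factors in the cold. It lies on scaffold 10 from 11632781 to 11634008. No read fell on it in SH, with a one-sided limit of 6.22 RPM and a two-sided interval of 0 to 7.65 RPM. In YK it had 1 read, or 2.32 RPM (two-sided interval 0.0586 to 12.9). No fold can be given, and a difference was not detectable at this depth. The same counts, none in SH and 1 in YK, were found at 903 genes. The adjacent Thhalv10017395m.g, 797 bp away, had 3 SH reads and no YK reads.

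Levels of different genes were compared as RPM per kilobase of locus from start to end, introns included. In SH the level was 42.9 for HB6, 37.5 for DEAR3, 32.6 for MYB48, 22.1 for CAM5, 2.61 for TSPO and 0 for COR15B. Intervals of neighbours in this order overlapped at every step. In YK the level was 109 for MYB48, 101 for HB6, 65.3 for CAM5, 35.1 for TSPO, 2.33 for DEAR3 and 1.89 for COR15B. There the step from TSPO to DEAR3 was the only one between neighbours without overlap. DEAR3 thus stood next to HB6 in SH and below TSPO in YK. Among all genes with reads, the level of HB6 lay at percentile 86.6 in SH and 93.7 in YK, and that of TSPO at percentile 27 and 83.5. The SH percentile of TSPO is loose, since it rests on 1 read, with an interval of 0.0662 to 14.6 RPM per kilobase.

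As shares of the reads on the 6 genes, which do not depend on scaling, HB6 held 40% in SH and 39.6% in YK. CAM5 held 25% and 31.1%, and MYB48 held 16% and 22.6%, each with overlapping intervals between the libraries. DEAR3 held 18% in SH (interval 11 to 26.9%) and 0.472% in YK (interval 0.0119 to 2.6%), and these intervals did not overlap. TSPO held 1% in SH (interval 0.0253 to 5.45%) and 5.66% in YK (interval 2.96 to 9.68%), with overlap. The intervals of HB6, MYB48 and CAM5 for the log2 ratio overlapped each other and that of TSPO, so these genes were not separated in the size of their difference.

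**Figure D2:**
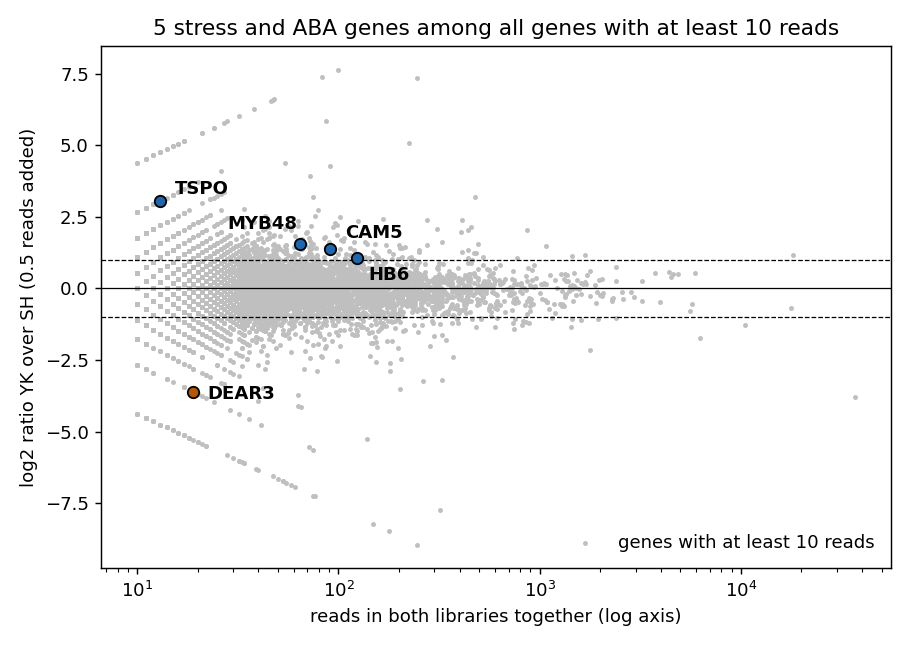
The log2 ratio of YK to SH (0.5 reads added) against the reads of both libraries together on a log axis, for all 10036 genes with at least 10 reads (grey) and for HB6, MYB48, CAM5 and TSPO (blue) and DEAR3 (brown); dashed lines mark 2-fold. HB6 lies close to the 2-fold line at 124 reads, whereas TSPO with 13 reads and DEAR3 with 19 lie where ratios of all genes spread widely.

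Fewer reads gave wider ratios. By 2-fold whatever the interval, 21.4% of all genes with at least 10 reads differed, 10.7% in each direction. Of genes with 10 to 49 reads, where TSPO and DEAR3 fall, 25.9% did, with 13.5% higher in YK and 12.4% in SH. With the interval required as well, 12.1% remained past both limits, 5.92% in YK and 6.2% in SH. Of genes with 50 to under 200 reads, where HB6, MYB48 and CAM5 fall, 11.8% were past 2-fold, and the interval removed none of them, with 4.75% higher in YK and 7.03% in SH. With 1 library per accession, these shares hold differences of growth, harvest and library preparation along with those of accession, and these cannot be told apart.

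Genes with a name and reads most like those of each gene were sought among 388 named genes, by the distance of log2 reads over both libraries. Among the genes nearest to HB6 was TI2 (Thhalv10001697m.g), a trypsin inhibitor gene, with 31 SH reads and 83 YK reads. CAM5 was nearest to MTHFR2 (Thhalv10001367m.g), a folate enzyme gene, with 31 and 61 reads, and to RABA2c (Thhalv10002662m.g), a Rab GTPase gene, with 33 and 58. MYB48 was nearest to ISPE (Thhalv10002004m.g), of plastid isoprenoid synthesis, with 16 and 34, and to the beta-amylase BAM1 (Thhalv10002460m.g) with 12 and 35. TSPO was nearest to RLP35 (Thhalv10000632m.g), a receptor-like protein gene, with 1 and 14 reads, and to the cell cycle inhibitor KRP1 (Thhalv10000332m.g) with 1 and 9. No named gene was close to DEAR3: the nearest, MPK6 (Thhalv10001439m.g), a stress-activated MAP kinase gene, had 9 and 2 reads, at a distance of 1.21 in log2, and the next, GRP7 (Thhalv10000386m.g), a glycine-rich RNA-binding protein gene, had 8 and 2. Over 2 libraries such likeness is loose.

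Other ABA and stress genes were sought by name. Hits were read only from the first 1998 rows of the authors' list of 17888 genes, and not every row held a name. Genes beyond these rows could not be found, whatever their annotation. Through the hits, 17 of 157 A. thaliana genes in 11 family and pathway lists were found, the 6 genes included. No clade A phosphatase and no ABF or ABI transcription factor was among them. Of the 12 other loci of these lists, 6 had at least 10 reads and none was called in either direction, at a background of 11.9% called in either direction over all genes. In ABA synthesis, AAO3 (Thhalv10001885m.g), the abscisic aldehyde oxidase of the last step, had 7 SH reads and 4 YK reads, and CYP707A3 (Thhalv10000876m.g), an ABA-inactivating hydroxylase, had 1 and none. The receptor gene PYL1 (Thhalv10001020m.g) had 14 and 5 reads, with a log2 ratio of -1.40 (interval -3.31 to 0.07). SNRK2.9 (Thhalv10000225m.g), of the SnRK2 kinase family, had 2 and 1 reads.

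A further 34 genes of ABA signalling and of heat, cold and osmotic stress were taken from the names themselves, and 19 of them had at least 10 reads. Among 12 such ABA signalling genes, none was called higher in YK and 1 higher in SH, beside 5.54% and 6.41% of all genes, so the count does not stand apart from the background. Their median log2 ratio was -0.23 against 0 over all genes. The called gene was MPK3 (Thhalv10002582m.g), a stress-activated MAP kinase gene, with 25 SH reads and 11 YK reads, with a log2 ratio of -1.15 (interval -2.36 to -0.11), and it was not called with total reads as the scaling or with a 99% interval. RHA2B (Thhalv10001158m.g), a RING ubiquitin ligase gene that promotes ABA responses, had 45 and 23 reads, with a log2 ratio of -0.95 (interval -1.76 to -0.21), just under 2-fold. XERICO (Thhalv10002694m.g), a RING protein gene whose product raises ABA levels, had 49 and 44 reads. Others of the 12 had more reads in YK. The furthest of these was IBR5 (Thhalv10002646m.g), with 7 and 13 reads and a log2 ratio of 0.85 (interval -0.54 to 2.46).

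Among 7 such heat, cold and osmotic stress genes, 1 was called higher in YK and none higher in SH, beside 5.54% and 6.41% of all genes, which likewise does not stand apart. Their median log2 ratio was 0.15. The called gene was RD2 (Thhalv10000338m.g), a universal stress protein gene responsive to desiccation, with 11 SH reads and 29 YK reads, with a log2 ratio of 1.36 (interval 0.35 to 2.55). The aquaporin gene PIP1;2 (Thhalv10001573m.g) was the best covered of these genes, with 167 and 139 reads and a log2 ratio of -0.26 (interval -0.60 to 0.07). SYT1 (Thhalv10000116m.g), a synaptotagmin of freezing tolerance, had 46 and 51 reads. HSFA2 (Thhalv10002333m.g), a heat shock factor gene, had none in SH and 1 in YK.

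**Figure D3:**
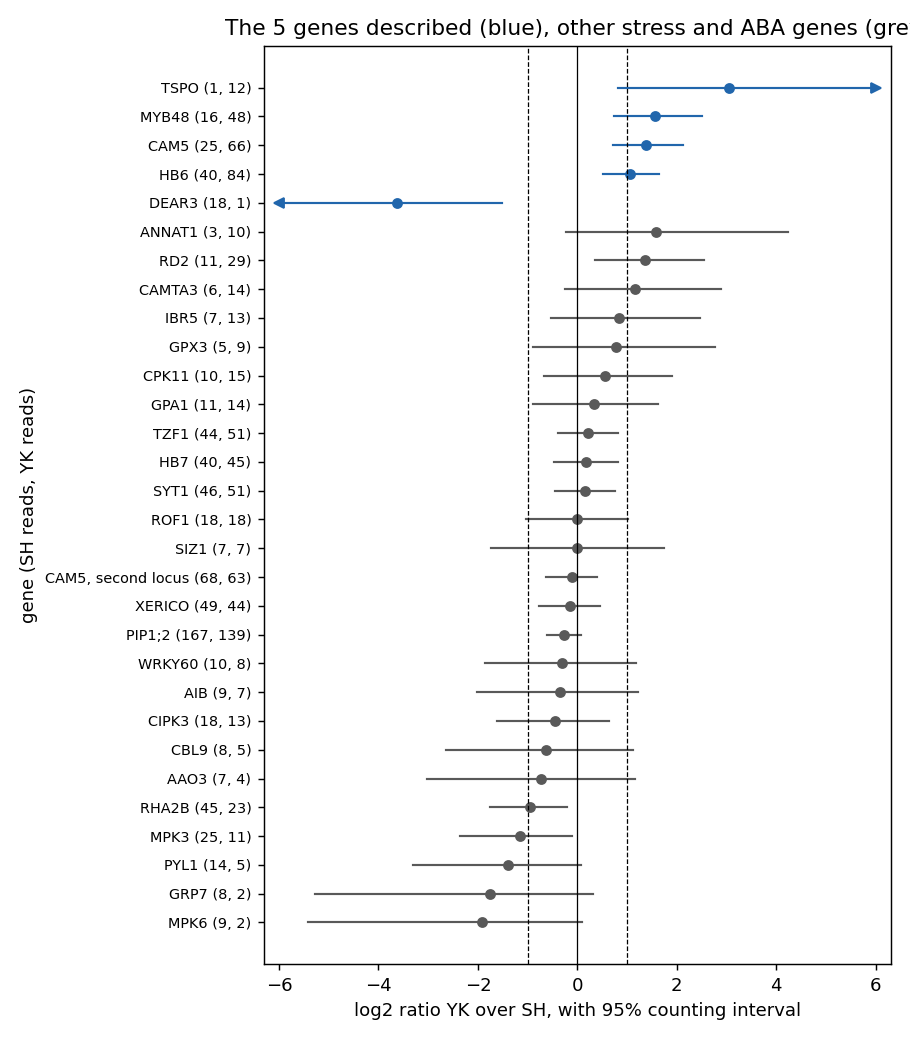
The log2 ratio of YK to SH (points) with its 95% counting interval (lines, arrowheads where the interval leaves the plot) for the 5 genes described with at least 10 reads (blue) and the 25 other stress and ABA loci with at least 10 reads (grey); the reads in SH and YK stand beside each name and dashed lines mark 2-fold. Of the 25 other loci, 23 were not called, and RD2 and MPK3 lie on opposite sides of 0.

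Over all of these lists together, 25 loci outside the 6 genes had at least 10 reads, with log2 ratios from -1.93 to 1.58 and a median of -0.11, and 8% of them were called, near the 11.9% of all genes. By 2-fold whatever the interval, 7 of the 25 differed (21.4% of all genes did). Only 25 of the 46 loci reached 10 reads, and a missing call does not show equal levels. The lists hold the part of each pathway found in the annotated rows used here, and most of each pathway was not examined.

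**Figure D4:**
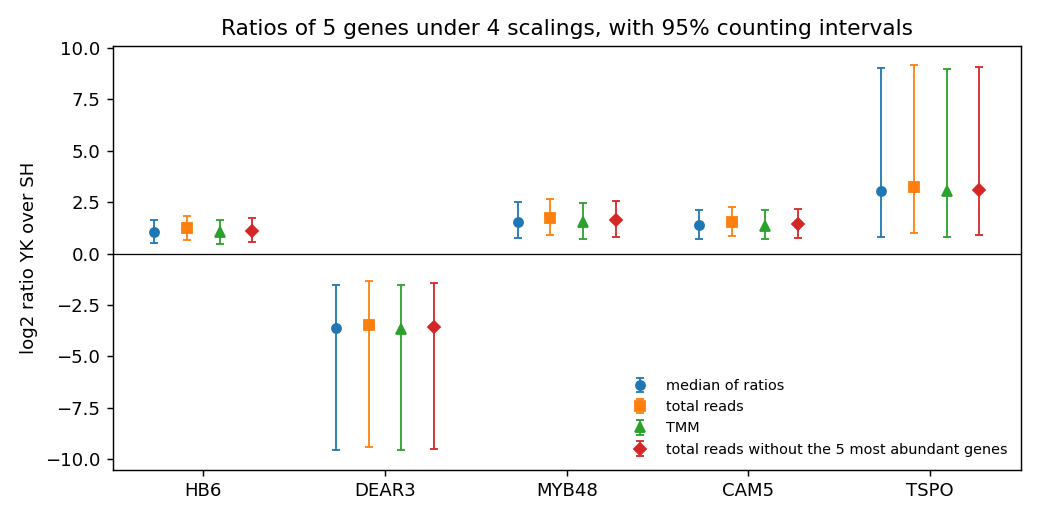
The log2 ratio of YK to SH of HB6, DEAR3, MYB48, CAM5 and TSPO with 95% counting intervals, computed with median-of-ratios, total reads, TMM and total reads without the 5 most abundant genes of each library. Under all 4 scalings DEAR3 lies below 0 and the other genes lie above it, and HB6 ranges from 1.04 to 1.22.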

How the data were processed

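Pyrosequencing on a Roche GS-FLX measured polyadenylated RNA in 1 library each of SH and YK. The authors trimmed reads with Newbler and the FASTX-Toolkit, mapped them to the SH genome of Phytozome (GMAP in the methods, GSNAP in the submitters' processing notes) and counted uniquely mapped reads per gene with HTSeq 0.5.4p5 in union mode without strand; the deposited values are raw counts. Unique mapping loses reads shared by gene copies, and antisense reads are not separated. The deposited fold changes, p-values and adjusted p-values come from the authors' own DESeq 1.14.0 comparison and were not used. A blank row without reads beside the 17888 genes was dropped.

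Ratios, Clopper-Pearson intervals and calls were computed with Python 3.11.15 and scipy 1.17.1, and TMM factors with edgeR 4.0.16. The interval and calling steps were tested on simulated counts with counting error only, which hold no variation between plants or libraries. With 1 library per accession, no significance test was made. Alternatives were other scalings, reads added, minimum reads, fold rules and a 99% interval. Genes named were the 6 genes, matched list genes (at most 4 of each list outside the families of the 6 genes), loci with the same hit, neighbouring loci and the 2 named genes nearest in reads, of which 1 is not reported here. The members and lists were chosen with earlier results of these data known, and the lists of further ABA signalling and stress genes from the names available. Names come from A. thaliana hits in the first 1998 rows of the authors' gene table; none of the identifiers matched the RefSeq table. Coordinates are those of the deposited table.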

Additional observations from a re-analysis of the deposited data

How the results depend on the processing

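Scaling moved the log2 ratios of all genes alike, by at most 0.16, which is small beside the counting intervals, so the directions of the called genes could not turn with it. HB6, MYB48 and CAM5 were called higher in YK under every alternative run; TSPO and DEAR3 kept their calls except with a minimum of 20 reads, which both miss. Counts over all genes moved more with the call rule. By 2-fold whatever the interval, 1077 genes were higher in YK and 1071 in SH, with 7 list genes outside the 6; by the interval whatever the fold, 878 and 1048 were; a 99% interval left 320 higher in YK and 437 in SH, and 1 list gene, RD2. Scaling by total reads also left RD2 as the 1 list gene called. Leaving out a replicate was not possible with 1 library per accession, and no paired analysis was possible because each accession has 1 library. Depth limits COR15B, TSPO in SH and DEAR3 in YK, each at 1 read or none. The names cover 10.8% of the family and pathway lists, so these do not stand for their pathways.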
